A study of Mus musculus with 6 samples.

Results

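This account describes 10 genes of the TNF, IL-6, IL-1 and inflammasome group, out of 22180 named genes measured, in macrophages sorted from mouse heart grafts. The 10 were chosen by name for what they encode: the cytokines Tnf, Il6, Il1a, Il1b and Il18, the inflammasome genes Nlrp3 and Casp1, and Il1rn, Il1r2 and Irak3, which restrain IL-1 signalling. The choice was made with earlier results of these data known. Each of the 10 had 1 probe set assigned to it alone, and that probe set gave its level. BALB/c hearts had been placed in C57BL/6 recipients, a full mismatch of transplantation antigens, and FACS (fluorescence-based cell sorting) collected the macrophages of each graft on day 6. In 1 group (3 arrays) recipients had received mTORi-HDL nanobiologics, an inhibitor of the kinase mTOR carried in high-density lipoprotein particles, at 5 mg/kg on days 0, 2 and 5. In the other group (3 arrays) recipients were untreated and rejected their grafts. No group received the lipoprotein alone, so the inhibitor and its carrier cannot be told apart. The sources used here give no ages, no sort markers and no word on pooling of animals. The p-values therefore measure only the spread between these arrays, which may be partly technical. RNA was measured on 1 array per sample after amplification from 15 ng. Levels are log2 values as processed by the authors, so that a difference of 1 is a doubling.

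TNF and IL-6 are secreted by activated macrophages after sensing of microbes or damaged cells, and act through their own receptors on leukocytes, endothelium and stroma. IL-1 alpha and IL-1 beta share a receptor, which the antagonist encoded by Il1rn occupies without signalling. The decoy receptor encoded by Il1r2 binds IL-1 without signalling and so competes with that receptor for it. IL-1 beta and IL-18 are made as inactive precursors that caspase-1 cuts once a sensor such as NLRP3 has assembled an inflammasome, a step that transcript levels do not show. In transplanted hearts these cytokines are known as early inflammatory signals.

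The treated array mTORi-HDL 1 differed from all others. Its Pearson correlation with them was 0.708 to 0.741 over all probe sets, and its slope against the mean of the other 5 was 0.641, where the other arrays had slopes of 1.02 to 1.05. Such a slope falls with the correlation too, so it does not measure compression alone. The SD of its log2 values was 1.685, against 2.04 to 2.09 on the other arrays. Each result for the 10 genes is given with and without mTORi-HDL 1. Macrophage markers were measured at a mean log2 level of 6.46 to 8.19 on the treated and 6.55 to 6.86 on the untreated arrays. T cell markers had a higher mean than these on every array, at 6.72 to 8.32 and 9.24 to 9.48, though each probe set has its own offset. Their defining gene Cd3e had a level of 6.46, 9.67 and 9.63 on the treated arrays and of 10.85, 10.37 and 10.50 on the untreated arrays, so the sorted material held T cell RNA in both groups.

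Upstream sequence is shown for 4 of the genes, picked after their values were seen: Il6 and Irak3, which differed widely between untreated arrays, and Il18 and Casp1, which were among the steadiest. The stretches are the 250 bases before a RefSeq start (GRCm38.p6), 5′ to 3′ on the gene's strand. Capitals mark matches, on either strand, to motifs of NF-kB (by name), AP-1 (TGANTCA), C/EBP (TTNNGNAA), PU.1 (GAGGAA) and the core of a cAMP response element (TGACG). No 2 matches overlap in the 4 stretches.
Il6, chr5:30012864-30013113, plus strand: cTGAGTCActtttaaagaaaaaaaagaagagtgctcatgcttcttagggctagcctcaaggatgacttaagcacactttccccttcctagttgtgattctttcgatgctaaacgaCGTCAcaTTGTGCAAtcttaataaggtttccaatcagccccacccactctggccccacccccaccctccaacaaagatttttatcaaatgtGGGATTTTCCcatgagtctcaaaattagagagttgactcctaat
Irak3, chr10:120202131-120202380, minus strand: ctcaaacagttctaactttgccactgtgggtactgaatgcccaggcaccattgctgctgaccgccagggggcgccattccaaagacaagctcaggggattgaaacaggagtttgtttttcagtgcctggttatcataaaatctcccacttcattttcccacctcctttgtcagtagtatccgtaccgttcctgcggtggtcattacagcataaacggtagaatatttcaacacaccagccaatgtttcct
Il18, chr9:50554450-50554699, plus strand: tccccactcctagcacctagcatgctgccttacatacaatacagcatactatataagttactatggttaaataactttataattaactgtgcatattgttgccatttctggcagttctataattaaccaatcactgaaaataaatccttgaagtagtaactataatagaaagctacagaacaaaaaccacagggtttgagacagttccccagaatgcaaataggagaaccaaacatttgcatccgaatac
Casp1, chr9:5298267-5298516, plus strand: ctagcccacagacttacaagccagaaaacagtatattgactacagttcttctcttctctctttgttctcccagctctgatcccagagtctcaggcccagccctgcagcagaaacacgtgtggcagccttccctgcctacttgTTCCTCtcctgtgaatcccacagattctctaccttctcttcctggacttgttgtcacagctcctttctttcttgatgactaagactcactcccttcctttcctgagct

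The Il6 stretch held 1 match each to the NF-kB, AP-1, C/EBP and cAMP response element motifs. The Casp1 stretch held 1 PU.1 match, and the Irak3 and Il18 stretches held 0 matches to the 5 motifs. Among 32851 RefSeq windows of this length, 7.25% held an NF-kB match, 6.75% an AP-1 match, 36.8% a C/EBP match, 23.3% a PU.1 match and 17.8% a cAMP response element core. RefSeq gave 14 windows for the 10 genes. Of the other 6 genes, Nlrp3 had an NF-kB match in 1 of its windows, and Il1a and Il1rn had an AP-1 match. In the Il1a window the C/EBP and PU.1 matches overlapped, as did a pair of C/EBP matches of Il1rn. A match is a run of letters and shows no binding.

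The comparison asked how mTORi-HDL altered inflammatory transcripts in macrophages of the rejecting graft. The 10 genes did not move one way: over all 6 arrays 6 were higher and 4 lower in treated samples (58.2% and 41.8% of all genes), and 0 passed limma's test (adjusted p of 0.05, Benjamini-Hochberg over all 22180 genes; 0% of all genes passed). At an unadjusted p under 0.05 there were also 0 of the 10, against 4.64% of all genes (1.57% higher and 3.07% lower). The median log2 fold change of the 10 was 0.18, beside 0.08 for all genes. Without mTORi-HDL 1 again 6 were higher and 4 lower (46.6% and 53.4% of all genes), with a median of 0.30 beside -0.03 for all genes. Then Il1b and Il1r2 were at an unadjusted p under 0.05, both higher, where 6.97% of all genes were at such a p in either direction (3.47% higher and 3.51% lower). Again 0 of the 10, and 0% of all genes, passed adjustment.

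**Figure D1:**
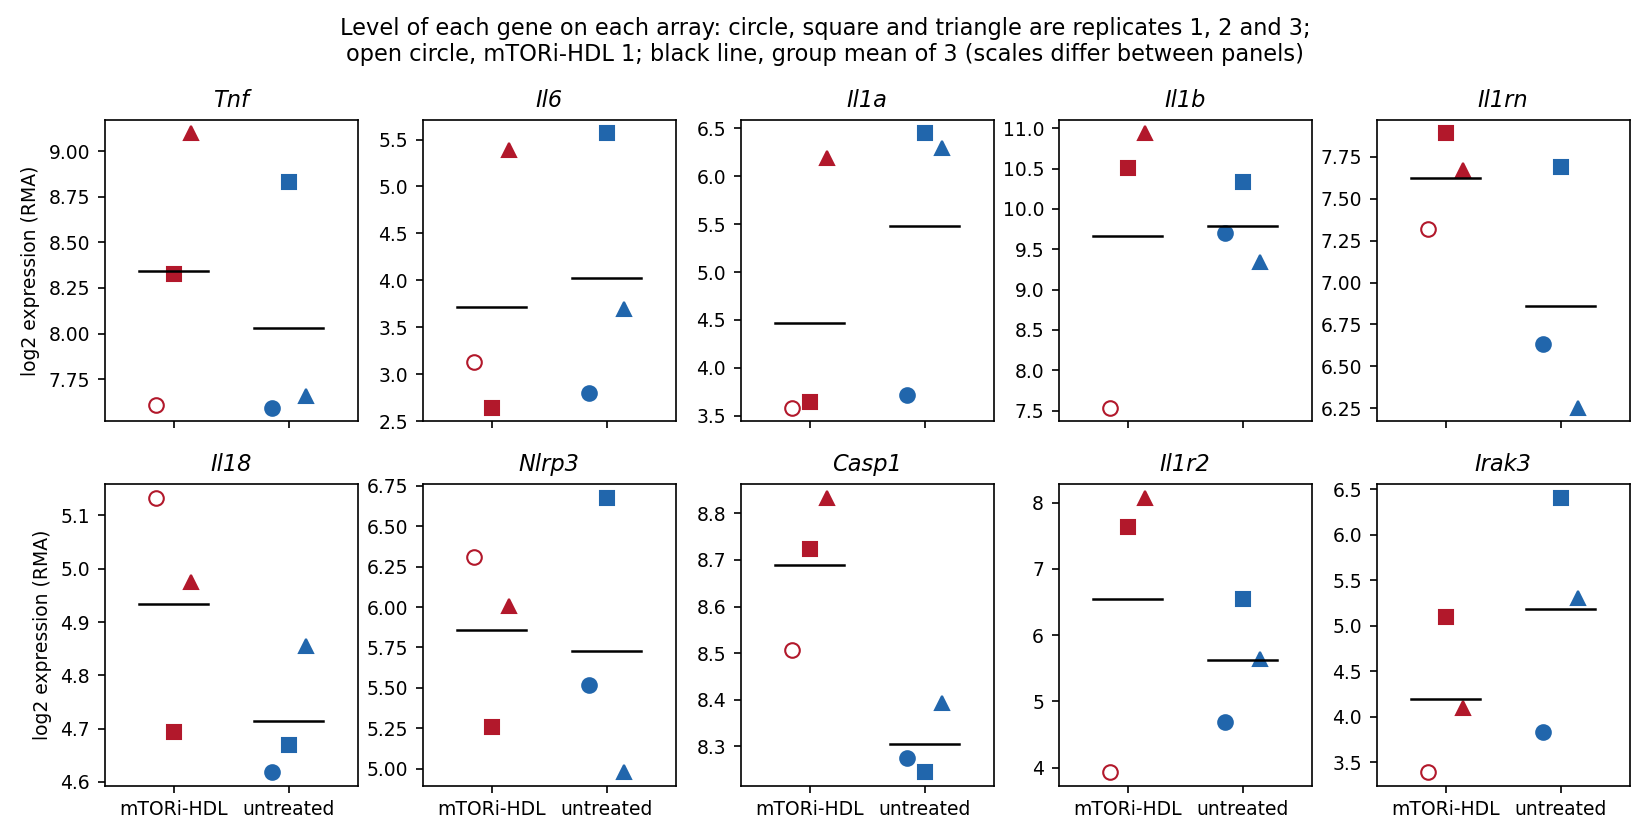
Log2 expression (vertical axis) of each of the 10 genes on each of 3 mTORi-HDL (red) and 3 untreated (blue) arrays, with group means as black lines and mTORi-HDL 1 as an open circle. Casp1 is the 1 gene whose groups do not overlap, and Il1b and Il1r2 are lowest on mTORi-HDL 1 and highest on the other treated arrays.

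Tnf, the macrophage's early inflammatory cytokine, had a log2 level of 7.61, 8.32 and 9.10 on treated arrays 1, 2 and 3 and of 7.59, 8.83 and 7.66 on untreated arrays 1, 2 and 3. The groups overlapped over nearly their whole range. Its log2 fold change, treated minus untreated, was 0.31 ± 0.49 (SE; 95% interval -0.84 to 1.47; limma, adjusted p = 0.909). Without mTORi-HDL 1 it was 0.68 ± 0.45 (limma, adjusted p = 0.845), and the interval of -0.38 to 1.75 leaves room for a rise of more than a doubling as well as for a small fall.

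Il6, which drives the acute phase response and supports T cell help, was at 3.13, 2.64 and 5.39 on the treated and at 2.80, 5.57 and 3.69 on the untreated arrays. It was high on 1 array of each group, mTORi-HDL 3 and untreated 2, and low on the others. The log2 fold change of -0.30 ± 0.89 (SE; 95% interval -2.39 to 1.79; limma, adjusted p = 0.950) was small against this spread, and without mTORi-HDL 1 it was -0.0032 (95% interval -2.40 to 2.39; limma, adjusted p = 0.9995). Il6 was the dimmest of the 10 and the 1 gene whose mean fell below the median level of all genes.

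Il1a, which encodes the alarmin IL-1 alpha, was at 3.59, 3.64 and 6.19 on the treated and at 3.72, 6.45 and 6.29 on the untreated arrays. The values fell into a low and a high set, with 1 treated and 2 untreated arrays in the high one. The log2 fold change was -1.01 ± 0.94 (SE; 95% interval -3.20 to 1.17; limma, adjusted p = 0.890), and -0.57 ± 1.02 without mTORi-HDL 1 (limma, adjusted p = 0.961).

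Il1b, which encodes the precursor of IL-1 beta, was at 7.54, 10.51 and 10.94 on the treated and at 9.70, 10.33 and 9.34 on the untreated arrays. Treated arrays 2 and 3 lay above all untreated arrays, and mTORi-HDL 1 lay far below them. Over all 6 arrays the log2 fold change was -0.13 ± 0.85 (SE; 95% interval -2.11 to 1.85; limma, adjusted p = 0.981). Without mTORi-HDL 1 it was 0.93 ± 0.34 (95% interval 0.12 to 1.74), a level 1.91 times the untreated one, and did not pass adjustment (limma, adjusted p = 0.630). The sign for this gene thus turned on that array, and it also turned without untreated 2 (0.14). Il18, the other cytokine cut by caspase-1, was at 5.13, 4.69 and 4.97 on the treated and at 4.62, 4.67 and 4.85 on the untreated arrays. These were overlapping values in a narrow range, with a log2 fold change of 0.22 ± 0.26 (SE; 95% interval -0.39 to 0.82; limma, adjusted p = 0.893) and of 0.12 ± 0.22 without mTORi-HDL 1.

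Il1r2, the decoy receptor, was at 3.94, 7.63 and 8.08 on the treated and at 4.69, 6.54 and 5.64 on the untreated arrays. Treated arrays 2 and 3 exceeded the highest untreated array by over 1 on the log2 scale, while mTORi-HDL 1 was the lowest of the 6. The log2 fold change was 0.92 ± 1.06 over all arrays (SE; 95% interval -1.56 to 3.41; limma, adjusted p = 0.892). Without mTORi-HDL 1 it was 2.23 ± 0.52 (95% interval 0.998 to 3.46; unadjusted p = 0.00385 and adjusted p = 0.378 by limma), a level 4.69 times the untreated one, so the gene did not pass in either fit. Without mTORi-HDL 3 the value was 0.16, so it rested on single treated arrays in both directions.

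Il1rn, the receptor antagonist, was at 7.32, 7.89 and 7.67 on the treated and at 6.63, 7.69 and 6.25 on the untreated arrays. The 3 treated arrays lay close together, and only untreated 2 reached their range. Its log2 fold change was 0.77 ± 0.41 (SE; 95% interval -0.20 to 1.73; limma, adjusted p = 0.890), and 0.92 ± 0.43 without mTORi-HDL 1 (limma, adjusted p = 0.754), so this gene depended little on that array. Irak3, which encodes IRAK-M, a kinase-like protein that dampens Toll-like and IL-1 receptor signalling, was at 3.39, 5.10 and 4.10 on the treated and at 3.83, 6.41 and 5.30 on the untreated arrays. Its treated mean was the lower one, with a log2 fold change of -0.98 ± 0.70 (SE; 95% interval -2.62 to 0.65; limma, adjusted p = 0.890) and of -0.58 ± 0.72 without mTORi-HDL 1 (limma, adjusted p = 0.940). The groups overlapped. The genes that restrain IL-1 therefore had no shared direction, with Il1rn and Il1r2 higher and Irak3 lower in mean.

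Casp1, the protease of the inflammasome, was at 8.51, 8.72 and 8.83 on the treated and at 8.28, 8.25 and 8.39 on the untreated arrays. It was the 1 gene of the 10 with all treated arrays above all untreated ones, as were 5.37% of all genes (5.53% had all treated arrays below and 10.9% did not overlap in either direction). The step was small, with a log2 fold change of 0.38 ± 0.25 (SE; 95% interval -0.20 to 0.96; limma, adjusted p = 0.890) and of 0.47 ± 0.21 without mTORi-HDL 1 (limma, adjusted p = 0.730), and did not pass in either fit. Without that array Casp1, Il1b and Il1r2 were the 3 of the 10 that did not overlap, all with treated samples higher, as 9.75% of all genes were (12.5% were lower without overlap and 22.3% were either). Nlrp3, the sensor, was at 6.31, 5.26 and 6.00 on the treated and at 5.52, 6.68 and 4.98 on the untreated arrays. Both groups covered much the same range, and the log2 fold change was 0.13 ± 0.49 (SE; 95% interval -1.02 to 1.28; limma, adjusted p = 0.962), and -0.09 ± 0.51 without mTORi-HDL 1 (limma, adjusted p = 0.991).

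**Figure D2:**
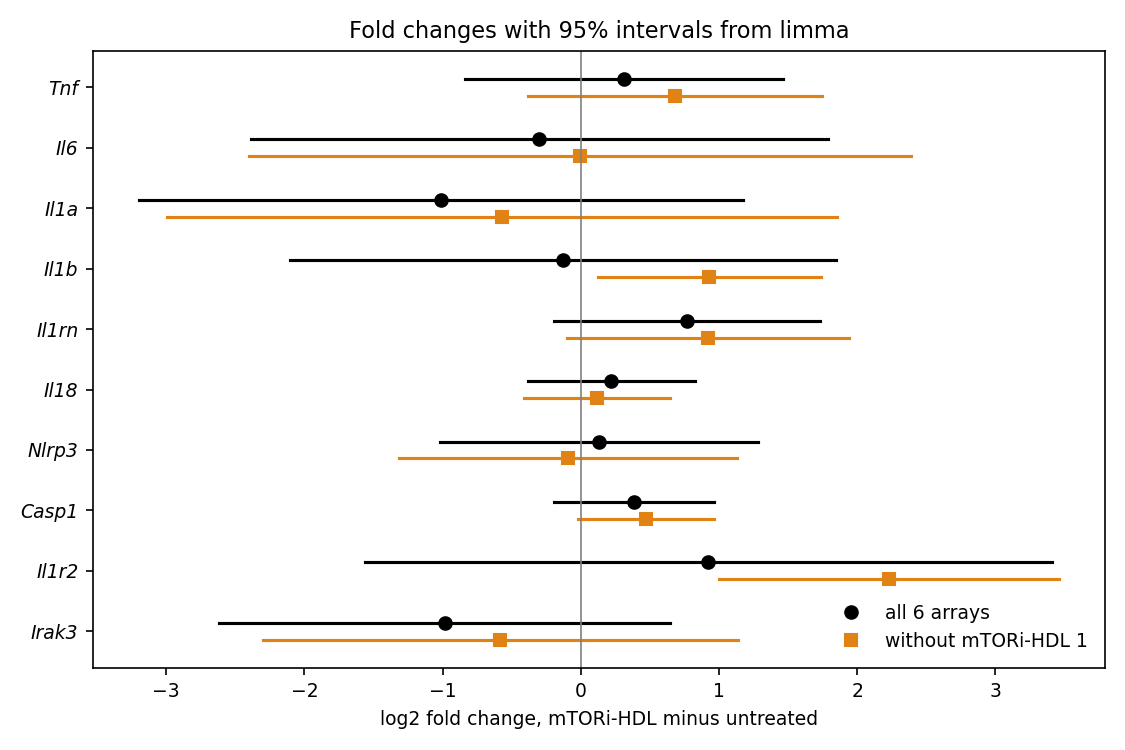
Log2 fold change, treated minus untreated (horizontal axis), of each of the 10 genes with its 95% interval from limma, over all 6 arrays (black circles) and without mTORi-HDL 1 (orange squares). Over all 6 arrays each interval spans 0. Without mTORi-HDL 1 those of Il1b (0.12 to 1.74) and Il1r2 (0.998 to 3.46) lie above 0 before any adjustment for the number of genes.

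Il1b was also taken relative to its inhibitors within each array; each probe set has its own offset, so only the change of such a difference between arrays is read. Il1b relative to Il1rn had a log2 difference of 0.22, 2.62 and 3.27 on the treated and of 3.07, 2.64 and 3.09 on the untreated arrays. The low value was that of mTORi-HDL 1, and the mean change of -0.90 was within the spread between arrays (exact permutation test over 20 splits, two-sided p = 0.6; 0.6 adjusted over the 2 relations tested). Without that array the change was 0.01 (exact permutation test over 10 splits, two-sided p = 1). Il1b relative to Il1r2 had a log2 difference of 3.60, 2.88 and 2.86 on the treated and of 5.01, 3.79 and 3.70 on the untreated arrays. All 3 treated arrays lay below all untreated arrays, with a mean change of -1.05. This gave the smallest p that 3 against 3 arrays allow (exact permutation test, two-sided p = 0.1; 0.2 adjusted over the 2 relations). The change was -1.30 without mTORi-HDL 1 (exact permutation test over 10 splits, two-sided p = 0.1, again the smallest possible) and -0.63 without untreated 1 (exact permutation test over 10 splits, two-sided p = 0.2), the range over arrays left out in turn. After quantile normalization mTORi-HDL 1 moved to 4.73, inside the untreated range, and the change was -0.64 (exact permutation test, two-sided p = 0.5).

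Differences between untreated arrays were large for most of the 10. The range over the 3 untreated arrays was 2.77 for Il6, 2.73 for Il1a and 2.58 for Irak3, wider than in 99.4%, 99.3% and 99.1% of all genes, in that order. By contrast it was 0.15 for Casp1 and 0.24 for Il18, wider than in 6.11% and 14.8% of all genes. Untreated 2 was the highest untreated array for 8 of the 10, which was the case for 28.8% of all genes; Casp1 and Il18 were the exceptions. In the treated group mTORi-HDL 3 lay above mTORi-HDL 2 for 8 of the 10, against 50% of all genes, with Il1rn and Irak3 as the exceptions. Il6 and Tnf were thus highest on mTORi-HDL 3 and untreated 2 and not on the arrays of 1 group.

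**Figure D3:**
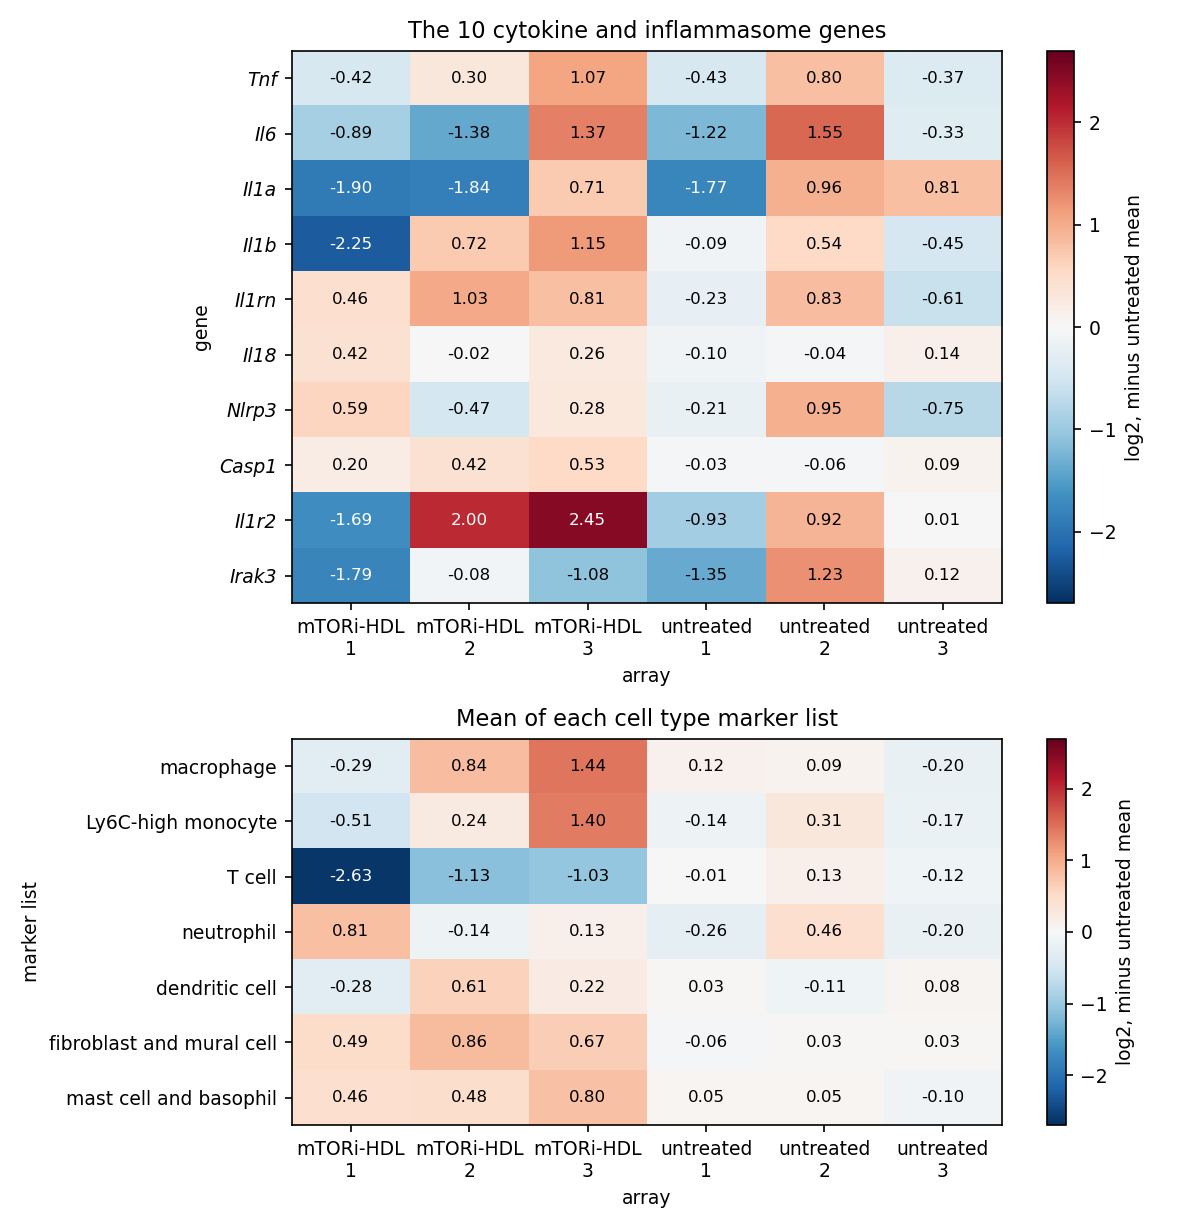
Level on each array (columns) minus the mean of the 3 untreated arrays, on the log2 scale, for the 10 genes (upper panel) and for the mean of each cell type marker list (lower panel); red is higher and blue lower. Il1b and Il1r2 read -2.25 and -1.69 on mTORi-HDL 1 and are above 0 on both other treated arrays, and the column of untreated 2 is above 0 for 8 of the 10 genes.

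Markers of other cells moved with some of these patterns. Against the untreated mean, the 13 neutrophil markers lay at 0.46 on untreated 2 and at -0.26 and -0.20 on the other untreated arrays, and at 0.81, -0.14 and 0.13 on the treated arrays. S100a8, a calprotectin gene of neutrophils and monocytes, was at 7.86, 6.35 and 8.92 on the treated and at 7.02, 9.57 and 7.68 on the untreated arrays. Its 2 highest arrays were those of Tnf and Il6, but it was the 1 of 13 neutrophil markers of which this held. Of the 13, 9 were highest on mTORi-HDL 1 and 3 on untreated 2, among all 6 arrays. Among the 3 treated arrays alone, mTORi-HDL 1 was the highest for 55.7% of all genes. The share of all genes highest on it among all 6 arrays was not counted. The mean level of the neutrophil list ranged from 4.21 to 5.15 in treated and from 4.09 to 4.80 in untreated samples, with 10 of 13 genes higher in treated samples and 0 past the test (6 of 13 higher without mTORi-HDL 1). The 7 monocyte markers lay at 0.24 and 1.40 on treated arrays 2 and 3, at -0.51 on mTORi-HDL 1 and at 0.31 on untreated 2, with 5 of 7 higher in treated samples and 0 past the test. Fn1, which encodes fibronectin, was at 9.54 on mTORi-HDL 3 and had a log2 fold change of 2.53. Ly6c2, which encodes the monocyte surface antigen Ly6C, was lower on all treated arrays than on all untreated ones (-1.64). For the 13 macrophage markers the values were 0.84 and 1.44 on mTORi-HDL 2 and 3, the ones with high Il1b and Il1r2, and at -0.29 on mTORi-HDL 1. Of these 11 were higher in treated samples and 0 passed, and Fcgr1, C1qb and C1qc (an Fc receptor and complement chains) had log2 fold changes of 1.84, 1.0 and 0.77. Csf1r, the macrophage growth factor receptor, was at 5.00, 8.75 and 9.08 on the treated and at 8.19, 7.54 and 7.93 on the untreated arrays. The T cell list was lower on each treated array, at -2.63, -1.13 and -1.03 against the untreated mean. In it 12 of 12 genes were lower in mean and 0 passed the test. At an unadjusted p under 0.05 (limma) 10 of the 12 were lower, against 3.07% of all genes. For 10 of the 12 all treated arrays lay below all untreated ones, against 5.53% of all genes. Without mTORi-HDL 1 each count was 11 (3.51% and 12.5% of all genes). The T cell genes Cd3g, Cd6 and Zap70 had log2 fold changes of -1.53, -1.49 and -1.20. Dendritic cell markers (7 of 10 higher) lay at -0.28, 0.61 and 0.22 on the treated arrays, against 0.03, -0.11 and 0.08 untreated. Fibroblast and mural cell markers (8 of 10 higher) lay at 0.49, 0.86 and 0.67, against -0.06, 0.03 and 0.03 untreated. Thy1 in this list went the other way, as the T cell markers did, with a log2 fold change of -1.97. It was at 6.73, 10.53 and 10.02 on the treated and at 11.18, 10.97 and 11.05 on the untreated arrays, which lowered the treated means of the list. Mast cell and basophil markers (9 of 10 higher) lay at 0.46, 0.48 and 0.80, against 0.05, 0.05 and -0.10 untreated. The fibroblast and mast cell lists were thus higher on each treated array than on any untreated one. In them 4 and 3 of 10 genes were higher at an unadjusted p under 0.05 (limma, 1.57% of all genes). The mast cell and basophil list was dim, with a mean level of 4.003 to 4.348 on the treated and 3.444 to 3.599 on the untreated arrays. The median level of all genes was 4.184. Fcer1a, among the 3 genes, was at 2.28, 2.38 and 2.38 on the treated and at 1.49, 1.81 and 1.82 on the untreated arrays. Whether the dim markers were above background was not tested. Of all these lists 0 genes passed the test. The part of cell composition in the results for the 10 genes was not tested, and in bulk samples fewer cells of a type and less RNA per cell cannot be told apart.

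Receptors and downstream parts of these pathways were taken from 4 lists of 76 entries, of which 69 were measured. In limma's test over all genes 0 of the 69 passed, with or without mTORi-HDL 1, and the lists' medians lay between -0.24 and 0.20 over all 6 arrays. In the TNF list 14 of 19 genes were lower and 5 higher (median -0.24, beside 0.08 for all genes), 0 of them at an unadjusted p under 0.05. Without mTORi-HDL 1 this turned to 7 lower and 12 higher (median 0.04). The receptors Tnfrsf1a and Tnfrsf1b had log2 fold changes of -0.01 ± 0.62 and -0.74 ± 0.53 (SE; limma, adjusted p = 0.997 and 0.890), and Ltb, a lymphotoxin chain made largely by lymphocytes, had -1.91 ± 0.91 (adjusted p = 0.890). Map3k7, the kinase TAK1, had -0.96 ± 0.56. Without mTORi-HDL 1 the value for Tnfrsf1a turned to 0.63 ± 0.42. The others kept their sign and were smaller in size, at -0.10 ± 0.21 for Tnfrsf1b, -0.88 ± 0.56 for Ltb and -0.30 ± 0.25 for Map3k7.

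In the IL-6 list 7 of 13 genes were higher and 6 lower (median 0.20), and without mTORi-HDL 1 9 were higher and 4 lower (median 0.23). Socs3, the feedback inhibitor of the IL-6 receptor and a target of STAT3, was at 9.94, 10.03 and 9.50 on the treated and at 8.08, 9.01 and 8.38 on the untreated arrays. All treated arrays lay above all untreated ones, mTORi-HDL 1 among them, as was so for 5.37% of all genes. The log2 fold change of Socs3 was 1.33 ± 0.33 (SE; 95% interval 0.55 to 2.11; limma, unadjusted p = 0.00462 and adjusted p = 0.789), and 1.27 ± 0.34 without mTORi-HDL 1 (adjusted p = 0.442). Socs3 was the 1 gene of the 13 at an unadjusted p under 0.05 (limma), where 4.64% of all genes were, and did not pass adjustment. The receptor chains Il6ra and Il6st had log2 fold changes of 0.30 ± 0.53 and -0.53 ± 0.89 (SE, with limma's adjusted p = 0.915 and 0.914). The related receptor Lifr had 0.93 ± 0.43 and the kinase Jak1 had -1.69 ± 0.93 (SE, with limma's adjusted p = 0.890 for each). Jak1 was at 5.64, 9.42 and 9.21 on the treated and at 9.73, 9.84 and 9.77 on the untreated arrays. All its treated arrays lay below all untreated ones, as was so for 5.53% of all genes. Without mTORi-HDL 1 the value for Il6st turned to 0.60 ± 0.35, and those for Il6ra, Lifr and Jak1 were 0.53 ± 0.55, 1.05 ± 0.45 and -0.46 ± 0.21.

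In the list of IL-1 and IL-18 receptors and signalling 9 of 15 genes were lower and 6 higher (median -0.10), and without mTORi-HDL 1 this turned to 6 lower and 9 higher (median 0.07). Il18r1, a chain of the IL-18 receptor found on T and NK cells, was at 5.69, 6.95 and 7.52 on the treated and at 7.91, 8.18 and 7.60 on the untreated arrays. Its groups did not overlap, and mTORi-HDL 3 was close to untreated 3. The log2 fold change of Il18r1 was -1.18 ± 0.48 (SE; limma, unadjusted p = 0.0415 and adjusted p = 0.890), and -0.66 ± 0.29 without mTORi-HDL 1, beside the T cell markers that were lower on the same arrays. Its partner chain Il18rap had -0.66 ± 0.83 and, without mTORi-HDL 1, 0.25 ± 0.55. The signalling receptor Il1r1 was dim (mean level 3.48 in treated and 3.55 in untreated samples), with a log2 fold change of -0.07 ± 0.42 (-0.53 ± 0.24 without mTORi-HDL 1), and the TAK1 partner Tab1 had 0.36 ± 0.25.

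In the inflammasome list 12 of 22 genes were lower and 10 higher (median -0.02), and without mTORi-HDL 1 6 were lower and 16 higher (median 0.34, beside -0.03 for all genes). Naip5, a sensor of bacterial flagellin, was at 5.06, 6.68 and 6.02 on the treated and at 4.67, 5.34 and 4.79 on the untreated arrays. Only untreated 2 reached into the treated range of Naip5, and its log2 fold change was 0.99 ± 0.44 (SE; limma, adjusted p = 0.890), or 1.42 ± 0.31 without mTORi-HDL 1 (adjusted p = 0.360). Mefv, the pyrin sensor, had 0.87 ± 0.42 and, without that array, 1.24 ± 0.33. Panx1, a channel that releases ATP, was lower, at -0.68 ± 0.34 and -0.83 ± 0.32. Pycard, the adaptor ASC that links sensor to caspase-1, had -0.67 ± 0.48 and, without mTORi-HDL 1, -0.14 ± 0.28, and Gsdmd, the pore former that caspase-1 cuts, had 0.51 ± 0.46 and 0.87 ± 0.41. None of these 5 genes passed limma's test in either fit.

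**Figure D4:**
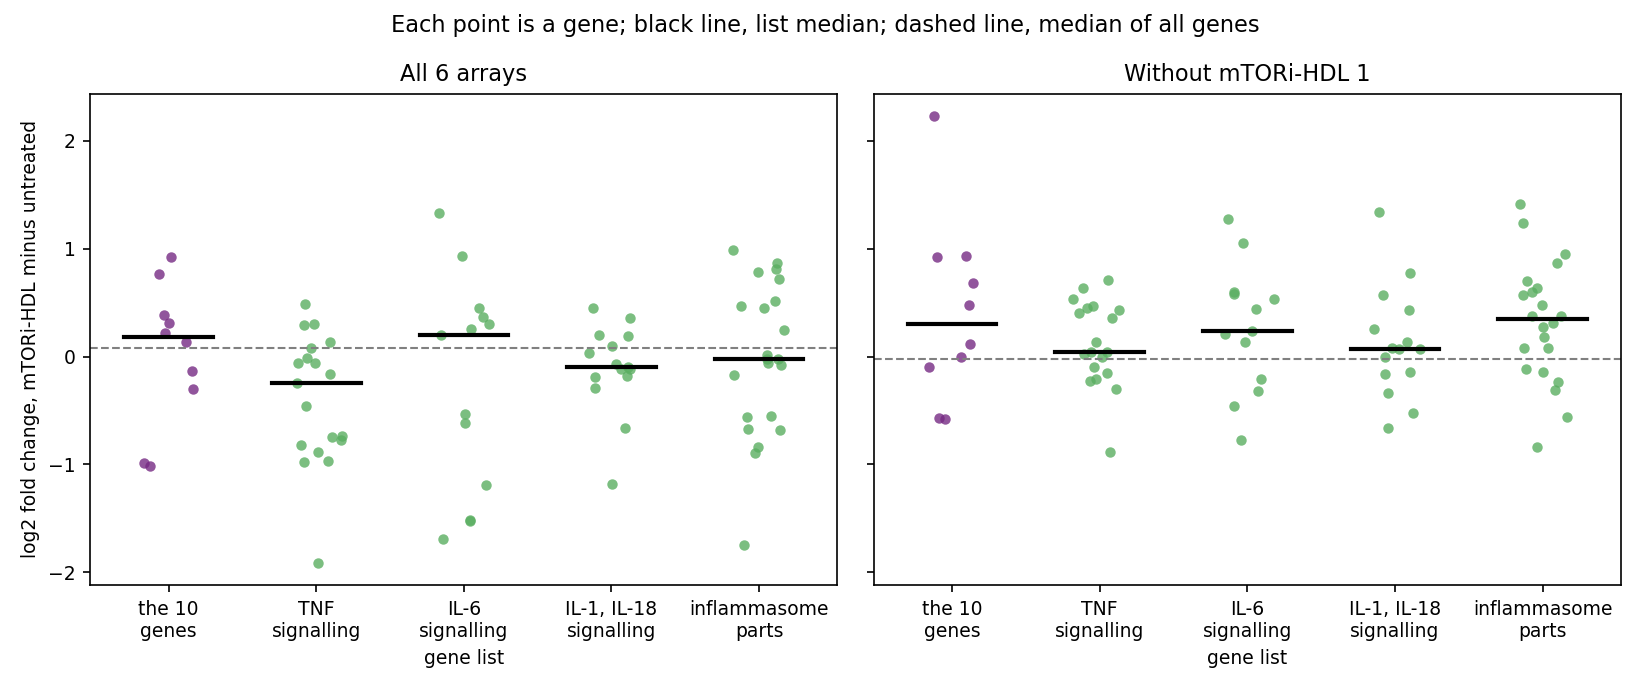
Log2 fold change, treated minus untreated (vertical axis), of the 10 genes (purple) and of the measured genes of 4 pathway lists (green), over all 6 arrays (left) and without mTORi-HDL 1 (right); black lines are list medians and the dashed line is the median of all genes. The TNF list median is -0.24 on the left and 0.04 on the right, and the inflammasome list median is -0.02 and 0.34.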

How the data were processed

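Labelled RNA of 6 samples was hybridised to 1 array each. The deposited log2 values of 41345 probe sets were made by the authors in Affymetrix Expression Console with RMA, as the submitters' processing notes record. RMA corrects background, quantile-normalizes and summarises probes. The deposited arrays nevertheless did not share 1 distribution. The median was 4.22 and the SD 1.685 on mTORi-HDL 1, where the other arrays had medians of 3.85 to 3.96 and SDs of 2.04 to 2.09. The build and probe filters are not given in the sources used here. Through the platform annotation 23521 probe sets had 1 gene symbol, 1814 several and 16010 none; those with 1 were used, the brightest (mean of 6 arrays) per gene, leaving 22180 genes, with no filter on dim ones. The comparison used limma 3.58.1 (R 4.3.3) with a term for group alone, which leaves 4 residual degrees of freedom (two-sided, Benjamini-Hochberg over all genes); the fit was tested on simulated data. There is no read depth here: 3 arrays per group set the precision. The 10 genes and all lists were chosen with earlier results of these data known. Of 157 list entries 144 were measured, 1 shared its probe set with other genes, and 12 were not analysed here. Named besides the 10 were genes of each pathway list with the 3 smallest p, 7 set receptors and effectors, and Csf1r, Cd3e and S100a8. The other macrophage, monocyte and T cell markers named were likewise those of their list with the smallest p in these data. Promoters came from RefSeq, GRCm38.p6. Alternatives were each array left out, median centring, quantile normalization, 2 level filters, a trended and robust eBayes, weights per array, blocking on the replicate number, the mean of probe sets and an adjusted p of 0.1.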

Additional observations from a re-analysis of the deposited data

How the results depend on the processing

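Of the 10 genes 0 passed limma's test under any alternative run (smallest adjusted p 0.325, Il1r2 with array weights; 0 to 3 of the 10 at an unadjusted p under 0.05, the 3 with array weights, where 7.97% of all genes were, against 2.77% to 7.97% over the settings), and of all genes 0 passed except 1 with array weights. The median over the 10 genes ran from -0.06 to 0.41. Median centring and quantile normalization gave a median over all genes of -0.03 and 0.03 in place of 0.08. The log2 fold change of Il1b was 0.14 after quantile normalization and 0.86 with array weights, and that of Il6 was 0.23 with array weights. With 1 array left out in turn Il1b ran from -0.77 to 0.93, Il6 from -1.14 to 0.47, Nlrp3 from -0.24 to 0.61 and Tnf from -0.063 to 0.72, each crossing 0. Without crossing 0, Il1r2 ran from 0.16 to 2.23, Il1a from -1.90 to -0.53, Irak3 from -1.66 to -0.37, Il1rn from 0.46 to 1.18, Il18 from 0.12 to 0.34 and Casp1 from 0.31 to 0.47. Il1b relative to Il1r2 ran from -1.30 to -0.63, and Il1b relative to Il1rn ran from -1.51 to 0.0105. The median-level filter left 9 of the 10, without Il6, and whether the dim genes Il6, Il1a and Irak3 were above background on every array was not tested. Same-numbered arrays deviated together in 2 of 3 pairs only (r = 0.136, 0.135 and -0.024 across genes), so the numbers were not taken as pairs. With the replicate block 0 genes passed, 1183 were at an unadjusted p under 0.05 against 1029, and 1 of the 10 (Irak3) was at such a p.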
